A study of Mus musculus with 12 samples.

Results

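How cultured primary smooth muscle cells of mouse vessels, labelled as TIGAR knockout, responded to PDGF-BB was measured in 6 of the 12 libraries of the series. The 6 were taken by their labels: 3 from labelled knockout cells left untreated and 3 from labelled knockout cells given PDGF-BB at 40 µg/L for 6 h. Wild-type cells, untreated or given PDGF-BB for the same 6 h, made up the other 6 libraries and serve as the comparison. Cells of both genotypes came from mice 4 to 6 weeks old, were grown in medium with serum and were used at passages 4 to 6. The knockout allele, the vascular bed, the sex of the mice and any withdrawal of serum before treatment are not given in the sources used here. Nor do they tell whether replicate libraries stem from different mice or dishes. The p-values therefore cover only the spread among these libraries, which may be technical.

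PDGF-BB binds the PDGF receptor tyrosine kinases and signals through the RAS-ERK and PI3K-AKT pathways. In vascular smooth muscle it is known as a driver of migration, proliferation and the loss of the contractile state after vessel injury. TIGAR is a fructose bisphosphatase that holds back glycolysis and favours the pentose phosphate pathway.

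Values are CPM, the reads of a gene scaled so that every library sums to 1000000. Genes reaching a CPM of 1 in 3 or more of the 12 libraries were tested, 14202 of the 55487 in the table. A gene was called when the adjusted p (limma-trend on log2(CPM + 1), Benjamini-Hochberg) was under 0.05. A log2 change below is always treated minus untreated on that log2(CPM + 1) scale, which understates the change of genes with few reads. Errors beside CPM are SD over 3 libraries. The 6 labelled knockout libraries held 14953807 to 21698488 reads. Whether counting used strand is not given in the sources used here. The counts of Acss3, Adamts9, Ccnd1, Dusp5, Fdps, Fgfr3, G6pdx, Hmgcs1, Pfkm, Rspo3, Scap, Serpinb2, Sfrp2, Slc6a9, Smtn, Tgfb3 and Txnip, with more than 10% of exon bases under another gene model, are uncertain. They may hold reads of that neighbour or lack reads that fall on both. For Serpinb2 the other model is on the same strand, so strand would not settle it.

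Tigar checks the label. It stood at 10.01, 12.2 and 11.3 CPM in the untreated labelled knockout libraries and at 14.6, 14.7 and 16.2 CPM in the treated ones, against 6.99, 8.61 and 6.91 CPM and 11.5, 11.5 and 12.6 CPM in wild-type cells. Its RNA was thus not lower in any library labelled knockout than in the wild-type libraries of the same treatment, and the genotype is given here by label only. With PDGF-BB it rose in labelled knockout cells (log2 0.41, SE 0.11, adjusted p = 0.00789). Reads over single exons were not analysed here, since the values are per gene.

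Of the smooth muscle markers, Acta2 stood at 2460.0 ± 577 CPM and Cald1 at 2347 ± 313 CPM in untreated labelled knockout cells. Myh11 stood at 78.97 CPM, Myocd at 2.79 CPM, and Des was below the filter. Tagln had 5.93 CPM, but 67.9% of its exon bases lie under an antisense gene model, so its count is uncertain. Endothelial markers were also present: the sum over 12 of them was 771 to 895 CPM untreated and 765 to 789 CPM with PDGF-BB, against 164 to 176 CPM and 146 to 156 CPM in wild-type cells. Of these 12, 1 was higher after PDGF-BB (Flt1, log2 1.61) and 2 were lower (Kdr, -0.82, and Erg, -0.48), with 5 lower without treated wild-type replicate 1 and 4 without untreated labelled knockout replicate 2. Summed macrophage markers ran the other way between genotypes, at 37.8 to 47.4 CPM untreated and 36.05 to 39.8 CPM treated in labelled knockout cells against 163 to 174 CPM and 121 to 177 CPM in wild-type ones. Krt18, the 1 epithelial marker of 7 that passed the filter, stood at 15.9 to 19.02 CPM untreated and 14.4 to 17.1 CPM treated, against 2.39 to 3.81 CPM and 2.27 to 3.77 CPM in wild-type cells. Summed Schwann cell markers stood at 17.4 to 20.5 CPM untreated and 13.9 to 14.98 CPM treated, with 2 of 5 lower. In wild-type cells they stood at 50.7 to 58.03 CPM and 37.5 to 59.2 CPM. Adipocyte markers stood at 13.7 to 15.4 CPM untreated and 9.87 to 11.4 CPM treated, with 1 of 2 lower. In wild-type cells those stood at 8.82 to 10.2 CPM and 9.01 to 13.1 CPM. Striated muscle markers summed to 6.28 to 13.2 CPM untreated and 21.2 to 24.9 CPM treated, with 1 of 3 higher, the actin gene Acta1 (1.31). Their wild-type sums were 6.55 to 7.13 CPM untreated and 8.46 to 12.3 CPM treated. Of the defining markers Krt14, Sox10, Cidec, Lep, Myh6 and Myh4 were at 0 in all labelled knockout libraries. The part of these cells in the results was not tested, and in bulk RNA fewer cells of a type and less RNA per cell cannot be told apart.

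In labelled knockout cells 2502 genes were higher (17.6% of the 14202 tested) and 3523 lower (24.8%) after PDGF-BB, 42.4% in either direction. Most of these changes were small. Only 586 genes (4.13%) were called with a change of at least 2-fold, 264 of them higher (1.86%) and 322 lower (2.27%), and 30 rose and 12 fell by at least 2 on the log2 scale. The median over all tested genes was -0.067. The excess of falls depended on the scaling, with 2989 higher and 3071 lower under TMM and 2857 and 2940 under quantile normalization. The 3 treated and 3 untreated libraries did not overlap for 63.2% of all genes, so lack of overlap alone marks little here. Of the 264 larger rises, 255 were also called higher in wild-type cells, and of the 322 larger falls 315 were also called lower there. Without treated wild-type replicate 1, the library farthest from its own group, which enters only through the shared estimate of spread, 3455 genes were higher and 4624 lower.

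The genes named next are the largest changes among called genes whose libraries did not overlap, so their lack of overlap is part of the choice. The 3 largest rises were in genes of few reads before treatment. Ngef, which encodes a guanine nucleotide exchange factor acting below Eph receptors (ENSMUSG00000026259, chromosome 1, 87476834 to 87573870, GRCm38), stood at 0.654, 0.736 and 0.945 CPM in the untreated libraries and 30.6, 27.2 and 34.5 CPM in the treated ones (log2 4.16, SE 0.17, adjusted p = 4.79e-09). Its treated libraries were all close together. Il1rl1, the receptor for interleukin 33, stood at 0.916, 0.468 and 0.667 CPM in the untreated libraries and 26.2, 21.2 and 28.2 CPM in the treated ones (log2 3.96, SE 0.13, adjusted p = 9.42e-10). Crct1 rose from 1.73 ± 0.708 to 25.7 ± 6.49 CPM. Lipg, the gene of endothelial lipase, rose from 0.808 ± 0.313 to 11.3 ± 1.33 CPM. Vgf, a neuropeptide precursor, rose from 0.964 ± 0.273 to 9.81 ± 0.158 CPM, and Prkg2, a cGMP-dependent protein kinase, from 1.95 ± 0.337 to 14.3 ± 0.436 CPM.

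Cd44 and Col6a3 were abundant before treatment. Cd44, the hyaluronan receptor, stood at 94.7, 107 and 97.3 CPM in the untreated libraries and 574, 500.0 and 602 CPM in the treated ones (log2 2.47, SE 0.074, adjusted p = 4.88e-10). Col6a3, a chain of collagen VI (ENSMUSG00000048126, chromosome 1, 90765923 to 90843971), stood at 109, 93.2 and 97.98 CPM in the untreated libraries and 533, 477 and 545 CPM in the treated ones (log2 2.36, SE 0.18, adjusted p = 4.21e-07). The other chains of that collagen moved little: Col6a1 rose by 0.27 and Col6a2 by 0.37. Lrp8, a receptor for apolipoprotein E and reelin, rose from 10.98 ± 1.38 to 56.3 ± 2.04 CPM and Cxcl14, a chemokine, from 2.16 ± 0.529 to 13.99 ± 1.19 CPM. Aldh1a3, which makes retinoic acid, rose from 7.47 ± 0.754 to 43.6 ± 5.09 CPM.

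The largest falls included secreted signals and their receptors. Nog, the BMP antagonist noggin (ENSMUSG00000048616, chromosome 11, 89300638 to 89302332), stood at 9.36, 9.83 and 10.7 CPM in the untreated libraries and 0.8296, 0.924 and 0.937 CPM in the treated ones (log2 -2.53, SE 0.12, adjusted p = 1.92e-08). Sost, the Wnt antagonist sclerostin, stood at 46.3, 22.6 and 18.2 CPM in the untreated libraries and 4.24, 3.26 and 4.998 CPM in the treated ones, so its untreated libraries were far apart, replicate 1 being the highest. Fgfr3, a receptor for fibroblast growth factors, stood at 63.3, 48.6 and 53.1 CPM in the untreated libraries and 9.91, 10.99 and 9.81 CPM in the treated ones. Fgf18, a ligand of that receptor (ENSMUSG00000057967, chromosome 11, 33117430 to 33147400), stood at 5.76, 7.62 and 8.51 CPM in the untreated libraries and 0.691, 1.46 and 1.499 CPM in the treated ones (log2 -1.91, SE 0.16, adjusted p = 1.16e-06). Ligand and receptor thus fell in the same libraries. Inhbb, an activin subunit, fell from 57.95 ± 3.698 to 12.9 ± 0.4101 CPM and Adamts9, a secreted metalloprotease, from 15.4 ± 6.74 to 2.82 ± 0.724 CPM.

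Other large falls were inside the cell or at its membrane. Phactr1, a regulator of protein phosphatase and actin, fell from 73.98 ± 19.5 to 12.9 ± 0.914 CPM. Tent5c, a poly(A) polymerase, fell from 19.1 ± 6.72 to 2.73 ± 0.53 CPM, Tppp, a tubulin-binding protein, from 19 ± 3.17 to 3.54 ± 0.0699 CPM, and Chdh, choline dehydrogenase of mitochondria, from 12.7 ± 0.162 to 2.51 ± 0.152 CPM. Ptpn13, a protein tyrosine phosphatase, fell from 39.3 ± 4.04 to 9.44 ± 1.74 CPM and the receptor gene Gpr165 from 4.54 ± 1.54 to 0.455 ± 0.0934 CPM. Mettl7a1 was the most abundant of the named falls, from 231 ± 29.2 to 54.6 ± 3.77 CPM. Cables1 fell by 2.15 and the non-coding Dlx6os1 by 2.13 on the log2 scale, though 34.2% of the exon bases of Cables1 are shared with another gene model. Over all named rises and falls the largest SE was 0.26 and the largest adjusted p 2.66e-05.

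**Figure D1:**
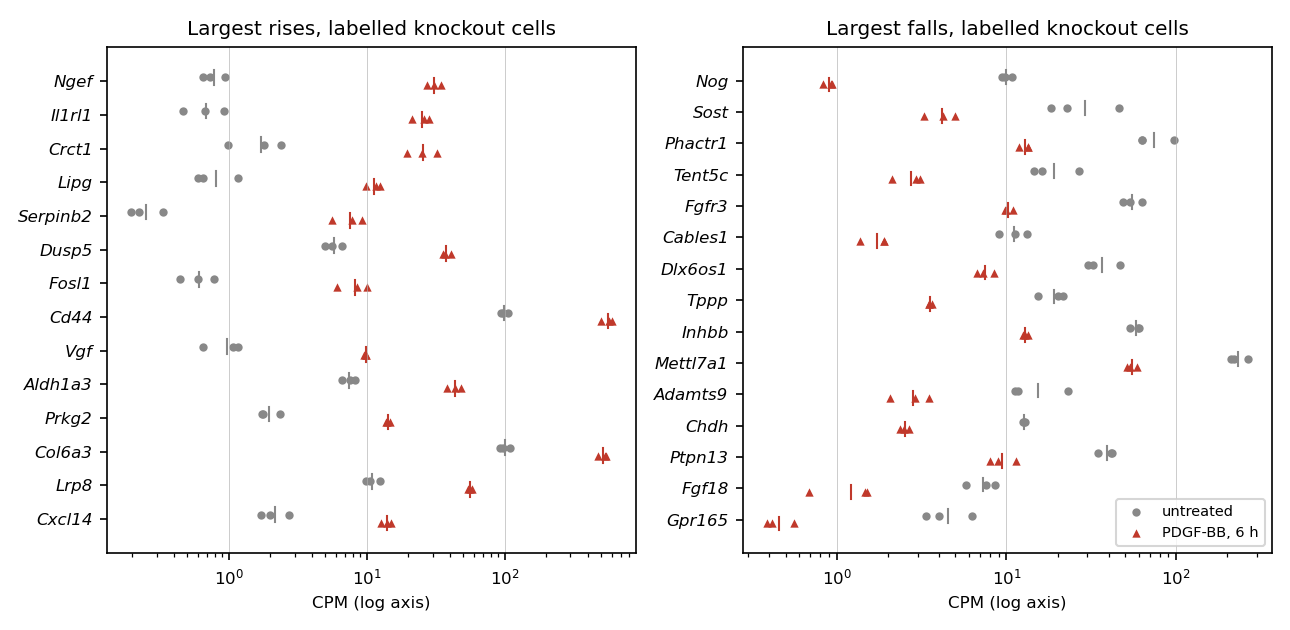
CPM on a log axis in each labelled knockout library for the largest rises (left) and falls (right), with untreated libraries as grey circles, treated ones as red triangles and a short line at each mean of 3. For every gene drawn the 3 treated libraries lie on one side of the 3 untreated ones, as the choice of genes requires, and Ngef goes from 0.778 to 30.8 CPM.

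Early response genes of the ERK pathway were mostly higher at 6 h. Of 20 early response transcription factors tested, 13 were higher and 2 lower, with a median log2 change of 0.49. In wild-type cells, where 25% of all genes were called higher and 34.4% lower, 59.4% together, the counts were 15 and 2 and the median 0.65. The 2 that fell were Fos (log2 -0.66) and Fosb (-0.61), the fastest AP-1 subunits, while the later subunit Fosl1 stood at 0.785, 0.602 and 0.445 CPM in the untreated libraries and 8.43, 6.13 and 9.995 CPM in the treated ones. Fosl1 shares 57.2% of its exon bases with the antisense gene Ccdc85b, so part of its count is uncertain. Egr1 rose from 65.5 to 159 CPM, Maff from 41.3 to 98.2 CPM, Myc from 13.4 to 28.3 CPM and the orphan nuclear receptor Nr4a3 from 0.404 to 2.903 CPM. Jun rose by 0.68, less than the 1.79 of wild-type cells (interaction -1.11, SE 0.13, adjusted p = 0.000431).

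ERK feedback genes encode the phosphatases and inhibitors that damp the pathway. Of 18 tested, 12 were higher and 1 lower, with a median of 0.53 against 0.76 in wild-type cells. The one that fell, Dusp16, was called in only 11 of 24 fits. Dusp5, a nuclear ERK phosphatase, stood at 5.63, 5.02 and 6.62 CPM in the untreated libraries and 41.02, 35.5 and 36.7 CPM in the treated ones. The cytoplasmic ERK phosphatase Dusp6 rose from 9.54 to 28.99 CPM, and Spry4 and Spry2, inhibitors of receptor signalling, rose by 1.70 and 1.09. Dusp1 did not pass the test (log2 -0.083). Errfi1, an inhibitor of the EGF receptor, rose by 0.94 in labelled knockout cells and by 2.37 in wild-type cells (interaction -1.42, SE 0.11, adjusted p = 7.35e-05).

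Ligands of the EGF receptor family parted in direction. Of 8 ligand and receptor genes tested, 4 were higher and 3 lower. Ereg, epiregulin, rose from 26.8 to 90.8 CPM, Hbegf from 24.6 to 77.7 CPM and Tgfa from 39.6 to 89.8 CPM. Btc, betacellulin, fell by 0.42 on the log2 scale and Nrg1, neuregulin 1, stood at 107, 87.3 and 79.4 CPM in the untreated libraries and 49.7, 49.03 and 52.3 CPM in the treated ones. Nrg1 fell far more in wild-type cells, -2.53 against -0.84 (interaction 1.69, SE 0.19, adjusted p = 0.000351). Egfr itself fell by 0.39, a call made in 18 of 24 fits.

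PDGF-BB binds the receptors encoded by Pdgfrb and Pdgfra. Pdgfrb did not pass the test, standing at 729 ± 51.97 CPM untreated and 852 ± 17.5 CPM treated. Pdgfra, which is also a fibroblast marker, stood at 112, 72.8 and 69.5 CPM in the untreated libraries and 34.2, 38.2 and 34.5 CPM in the treated ones. It fell by 1.19. The summed fibroblast markers, of which it is 1, stood at 239 to 264 CPM untreated and 185 to 191 CPM treated. In wild-type cells the sums were 440 to 467 CPM and 356 to 396 CPM. Of the 9 fibroblast markers tested, 1 was higher, 2 were lower, Pdgfra among them, and 6 were not called in labelled knockout cells. The fall of Pdgfra is thus itself part of the fall of the sum. The part of fibroblasts in these values was not tested. The ligand gene Pdgfd fell by 0.74. In the FGF family Fgf2 rose by 0.42, Fgf7 by 0.91 and the receptor Fgfr1 by 0.25, while Fgfr2 fell from 214 to 79.7 CPM along with Fgfr3, Fgf18 and the decoy receptor Fgfrl1 (log2 -0.92).

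Plasminogen activators cut plasminogen to plasmin at the cell surface, and serpins hold them in check. Of 8 genes of this system tested, 7 were higher and 0 lower, with a median of 1.20 against 1.17 in wild-type cells. Activators, a receptor and an inhibitor were among them. Plau rose from 25.8 to 60.5 CPM, Plat from 40.9 to 95.5 CPM and the urokinase receptor gene Plaur stood at 22.3, 31.9 and 36.8 CPM in the untreated libraries and 129.7, 127 and 136 CPM in the treated ones. Serpinb2, an inhibitor of urokinase, stood at 0.196, 0.334 and 0.222 CPM in the untreated libraries and 9.17, 5.64 and 7.87 CPM in the treated ones. Serpine2 did not pass the test (log2 -0.17).

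The bases before the start sites of Serpinb2 and Plaur are shown because both hold an AP-1 element, the site bound by the Fos and Jun families described above. The motif searched was TGANTCA on both strands, in windows from 250 bases before to 50 after each RefSeq start (GRCm38.p6). It was found in 3 of the 4 genes of this list with a window, the third being Anxa2, and in 6.24% of all 10427 tested genes that had one. None of the 16 ERK feedback genes and none of the 15 early factors with a window held it. Printed are the 250 bases before the start, 5′ to 3′ on the gene's strand, with the match in capitals. It begins 94 bases before the start of Serpinb2 and 69 before that of Plaur.
Serpinb2 chr1:107511173-107511422 (+): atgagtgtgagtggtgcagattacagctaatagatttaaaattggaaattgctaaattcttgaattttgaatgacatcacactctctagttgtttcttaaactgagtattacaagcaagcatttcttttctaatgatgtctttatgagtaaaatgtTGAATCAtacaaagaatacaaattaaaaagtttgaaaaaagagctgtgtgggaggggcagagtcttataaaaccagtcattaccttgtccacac
Plaur chr7:24462233-24462482 (+): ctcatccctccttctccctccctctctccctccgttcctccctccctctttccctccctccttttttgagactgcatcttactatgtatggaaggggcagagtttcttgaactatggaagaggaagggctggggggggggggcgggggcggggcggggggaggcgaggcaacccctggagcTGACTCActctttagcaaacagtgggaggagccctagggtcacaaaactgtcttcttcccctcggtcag

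Genes of lipid synthesis rose almost throughout. Sterol enzymes turn acetyl-CoA into cholesterol under the transcription factor SREBP2, and fatty acid enzymes are driven by SREBP1. Of 37 genes of both pathways tested, 33 were higher and 2 lower, with a median of 0.97, against 29, 1 and 0.91 in wild-type cells. Of the 20 sterol enzymes 19 rose, and Ebp did not pass the test (log2 0.079). Hmgcs1, at the entry of the pathway, stood at 35.9, 55.6 and 57.7 CPM in the untreated libraries and 183, 169.7 and 179.7 CPM in the treated ones. Idi1 stood at 7.46, 17.7 and 17.1 CPM in the untreated libraries and 54.7, 58.7 and 59.5 CPM in the treated ones, and Lss and Cyp51 rose by 1.82 and 1.81. The low count of Fdps, from 1.79 to 5.86 CPM, is uncertain, since this gene has near-identical copies.

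Fatty acid enzymes rose as well. Of 9 tested 8 were higher, with a median of 0.97 against 1.17 for the sterol enzymes. Elovl6, an elongase, rose from 15.2 to 52.5 CPM, Fasn, fatty acid synthase, from 214 to 425 CPM and the desaturase Scd2 from 545 to 1255 CPM. Fads1 did not pass the test in labelled knockout cells (0.22) and was lower in wild-type ones (-0.57), with a called interaction of 0.78 in 19 of 23 fits. Of the controllers, Insig1 rose from 38.7 to 116 CPM and Srebf2 from 87.4 to 161 CPM, whereas Insig2 fell by 0.44 and Scap by 0.21 (called in 17 of 24 fits). Of 7 genes of cholesterol efflux and its receptor LXR, 1 was higher and 3 were lower, among them Nr1h3, LXR alpha (-0.71), with 5 lower without treated wild-type replicate 1.

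Windows of 3 genes are shown because the CCAAT box, the site of the factor NF-Y that works beside SREBP, was frequent in this pathway. CCAAT was searched on both strands and so also appears as ATTGG. It was found in 14 of 15 sterol enzymes with a window (93.3%) and in 21 of 26 genes of both pathways (80.8%), against 43.0% of tested genes. Among all tested genes called higher the share was 43.4% and among those called lower 43.8%. The sterol element TCACNCCAC was found in 1 of the 26, Hmgcs1, and in 1.36% of tested genes. In the 250 bases printed Hmgcs1 holds 3 boxes, beginning 237, 176 and 45 bases before the start, Idi1 has 2, at 45 and 14, and Cyp51 has 1, at 29.
Hmgcs1 chr13:119690101-119690350 (+): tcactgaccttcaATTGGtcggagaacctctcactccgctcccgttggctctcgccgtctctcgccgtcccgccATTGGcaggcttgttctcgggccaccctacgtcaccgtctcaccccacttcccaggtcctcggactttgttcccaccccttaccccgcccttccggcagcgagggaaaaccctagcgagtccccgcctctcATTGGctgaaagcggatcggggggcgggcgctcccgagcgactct
Idi1 chr13:8885356-8885605 (+): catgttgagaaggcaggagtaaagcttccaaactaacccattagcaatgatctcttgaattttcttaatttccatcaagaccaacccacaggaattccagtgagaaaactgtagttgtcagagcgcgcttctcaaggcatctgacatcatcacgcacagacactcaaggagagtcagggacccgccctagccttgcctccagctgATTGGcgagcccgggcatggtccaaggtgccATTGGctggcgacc
Cyp51 chr5:4104698-4104947 (-): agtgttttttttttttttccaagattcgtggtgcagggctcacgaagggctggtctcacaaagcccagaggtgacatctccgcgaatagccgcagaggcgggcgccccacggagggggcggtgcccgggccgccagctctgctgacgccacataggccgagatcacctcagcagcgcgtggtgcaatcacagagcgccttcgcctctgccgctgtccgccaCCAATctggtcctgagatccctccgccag

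**Figure D2:**
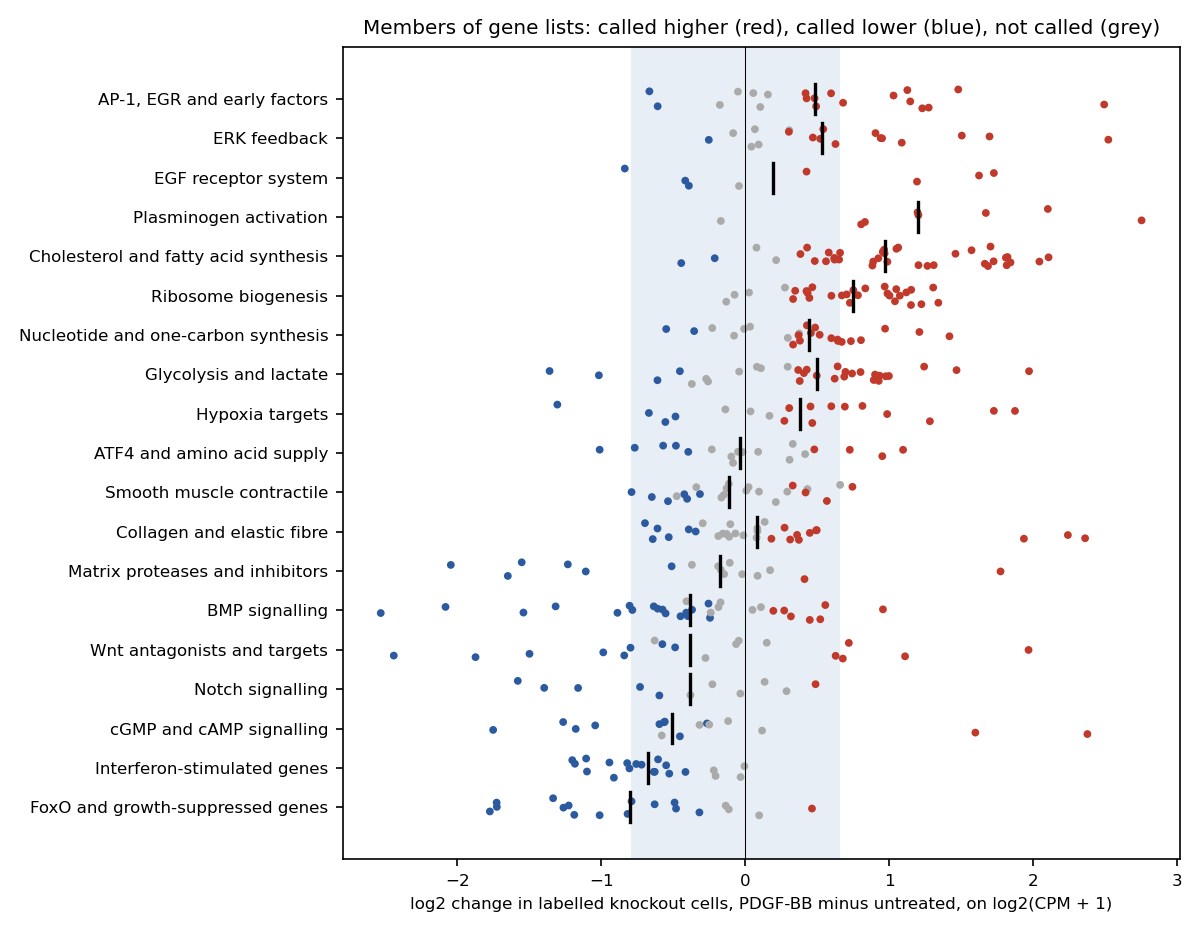
Log2 change of each tested member of 19 gene lists in labelled knockout cells, with members called higher in red, called lower in blue and not called in grey, the list median as a black line, and the range holding the middle 90% of all tested genes shaded. Sterol and fatty acid synthesis has a median of 0.97 and the list of FoxO and growth-suppressed genes one of -0.80.

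Genes for building ribosomes rose almost throughout as well. Of 29 tested, 25 were higher and 0 lower, with a median of 0.75, against 26, 0 and 1.13 in wild-type cells. Rrp12, an export factor of ribosomal subunits, rose from 10.9 to 29.1 CPM and the nucleolar proteins Nop56 and Gnl3 by 1.31 and 1.22. Polr1a, the largest subunit of RNA polymerase I, rose by 0.84. Only 1 interaction was called in the list, for the helicase gene Ddx21 (-0.65). Of 24 genes of nucleotide and one-carbon synthesis 16 were higher and 2 lower, with a median of 0.44. In wild-type cells 18 were higher and 3 lower, with a median of 0.84. The interaction was called negative for 3, each in all fits, and positive for 0, against 1.68% and 2.25% of all genes. Among the 2 lower in labelled knockout cells was Shmt1 (-0.35, called in 8 of 23 fits). The lower count was 0 without untreated labelled knockout replicate 2 or treated replicate 1 or 3, and 1 without untreated replicate 3 or treated replicate 2 of labelled knockout or without untreated replicate 1 or 3 or treated replicate 2 of wild-type. Psat1 of serine synthesis rose from 31.02 to 71.2 CPM, Mthfd1l of mitochondrial folate metabolism from 15.1 to 41.98 CPM and Cad, which begins pyrimidine synthesis, from 48.2 to 95.4 CPM. Of 10 polyamine genes 4 were higher and 2 lower, with a median of 0.22, against 6, 2 and 0.67 in wild-type cells. All 10 interaction values were negative, and 1 was called. Srm, spermidine synthase, rose by 1.48 and Amd1 by 0.98, the antizyme gene Oaz2 and the spermine oxidase gene Smox fell by 0.41 and 0.46 on the log2 scale, and Odc1, the first enzyme, did not pass the test (0.14).

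Genes of glycolysis, the pathway that TIGAR acts on, rose in both genotypes, and several rose less in labelled knockout cells. Of 31 genes tested, 20 were higher and 4 lower, with a median of 0.50. In wild-type cells 21 were higher and 6 lower, with a median of 0.78. The interaction was called for 11 in the negative direction and 2 in the positive, where 1.68% and 2.25% of all genes, 3.92% together, were called. Of the 11, 8 were called in all fits. Hk2, a hexokinase, stood at 8.64, 9.09 and 7.95 CPM in the untreated libraries and 36.7, 32.7 and 40.4 CPM in the treated ones, and its rise of 1.97 compares with 3.33 in wild-type cells (interaction -1.36, SE 0.14, adjusted p = 0.00025). Ldha, lactate dehydrogenase A, stood at 229, 253 and 253 CPM in the untreated libraries and 571, 584 and 589.8 CPM in the treated ones, with an interaction of -0.87. The lactate exporter Slc16a3 rose from 8.51 to 25.1 CPM (interaction -1.11) and the glucose transporter Slc2a1 from 48.5 to 96.4 CPM (interaction -0.73).

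Members that fell were Pdk4 (-1.36) and Pdk2 (-1.02), kinases that inhibit pyruvate dehydrogenase, Ldhb (-0.61) and Pfkm (-0.45). Pfkfb3, which makes the allosteric activator of phosphofructokinase, rose by 0.50 against 1.64 in wild-type cells (interaction -1.14, SE 0.17, adjusted p = 0.00287). Its relative Pfkfb4 ran the other way, 0.93 against 0.38, with an interaction of 0.56 called in 12 of 23 fits. Gapdh is listed at 23.6 CPM untreated, a count that is uncertain because the gene has many near-identical copies. In the pentose phosphate list 5 of 12 genes were higher and 0 lower. G6pdx, the first enzyme, rose by 0.42 and Pgd by 0.39. That count was 7, with 1 lower, without treated wild-type replicate 1, and fell to 2 or 3 without any 1 of 9 libraries (replicates 1, 2 and 3 of both untreated groups and of labelled knockout with PDGF-BB).

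Targets of hypoxia-inducible factor included further genes with smaller rises. Of 18 tested, 11 were higher and 4 lower, with a median of 0.38 against 0.69 in wild-type cells, and 7 had a called negative interaction (5 of them in all fits) and 0 a positive one. Bhlhe40, a repressor, rose from 13.6 to 46.99 CPM (interaction -0.82) and Egln3, an oxygen-sensing hydroxylase, from 4.61 to 10.1 CPM (interaction -1.03). Plod2, a collagen lysyl hydroxylase, went the other way, from 831 to 336 CPM (-1.30 and -1.32 in wild-type). Vegfa did not pass the test in labelled knockout cells (0.17) and rose in wild-type cells (0.75, interaction -0.58). The core of the hypoxia element, ACGTG, was found in 11 of 14 hypoxia genes and 17 of 30 glycolysis genes with a window, against 28.8% of tested genes, and it overlaps the E-box CACGTG.

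The ATF4 list, named for the factor of amino acid stress, differed in its counts between genotypes. In wild-type cells 13 of 18 genes were higher and 3 lower, with a median of 0.82. In labelled knockout cells 4 were higher and 5 lower, with a median of -0.033, and 6 negative interactions and 0 positive ones were called, 4 of the former in all fits. Without treated wild-type replicate 1 the labelled knockout counts were 7 and 6, and they fell to 3 lower without replicate 2 or 3 of the untreated or replicate 3 of the treated labelled knockout libraries and to 2 without treated replicate 1. The sign of the median changed between settings. Asns, asparagine synthetase, stood at 39.5, 54.9 and 54.9 CPM in the untreated libraries and 61.7, 61.2 and 63.6 CPM in the treated ones, which did not pass the test (0.33), whereas wild-type cells rose by 1.64 (interaction -1.31, SE 0.21, adjusted p = 0.00373). Atf4 itself was not called (0.31, interaction -0.89 in 15 of 23 fits). Slc38a2, an amino acid transporter, fell from 576 to 284 CPM. Mthfd2, a mitochondrial folate enzyme under ATF4, rose by 0.60 against 2.56 in wild-type cells (interaction -1.96, SE 0.22, adjusted p = 0.000431).

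Trib3, a pseudokinase induced by ATF4, moved in opposite directions. It stood at 15.2, 21.1 and 20.6 CPM in the untreated libraries and 12.6, 14.01 and 12.99 CPM in the treated ones for labelled knockout cells and went from 5.84 ± 0.945 to 12.3 ± 2.47 CPM in wild-type cells (interaction -1.43, SE 0.22, adjusted p = 0.00271). The untreated labelled knockout libraries lay above the treated wild-type ones, the lowest of them by little, and their fall was called in 19 of 24 fits.

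**Figure D3:**
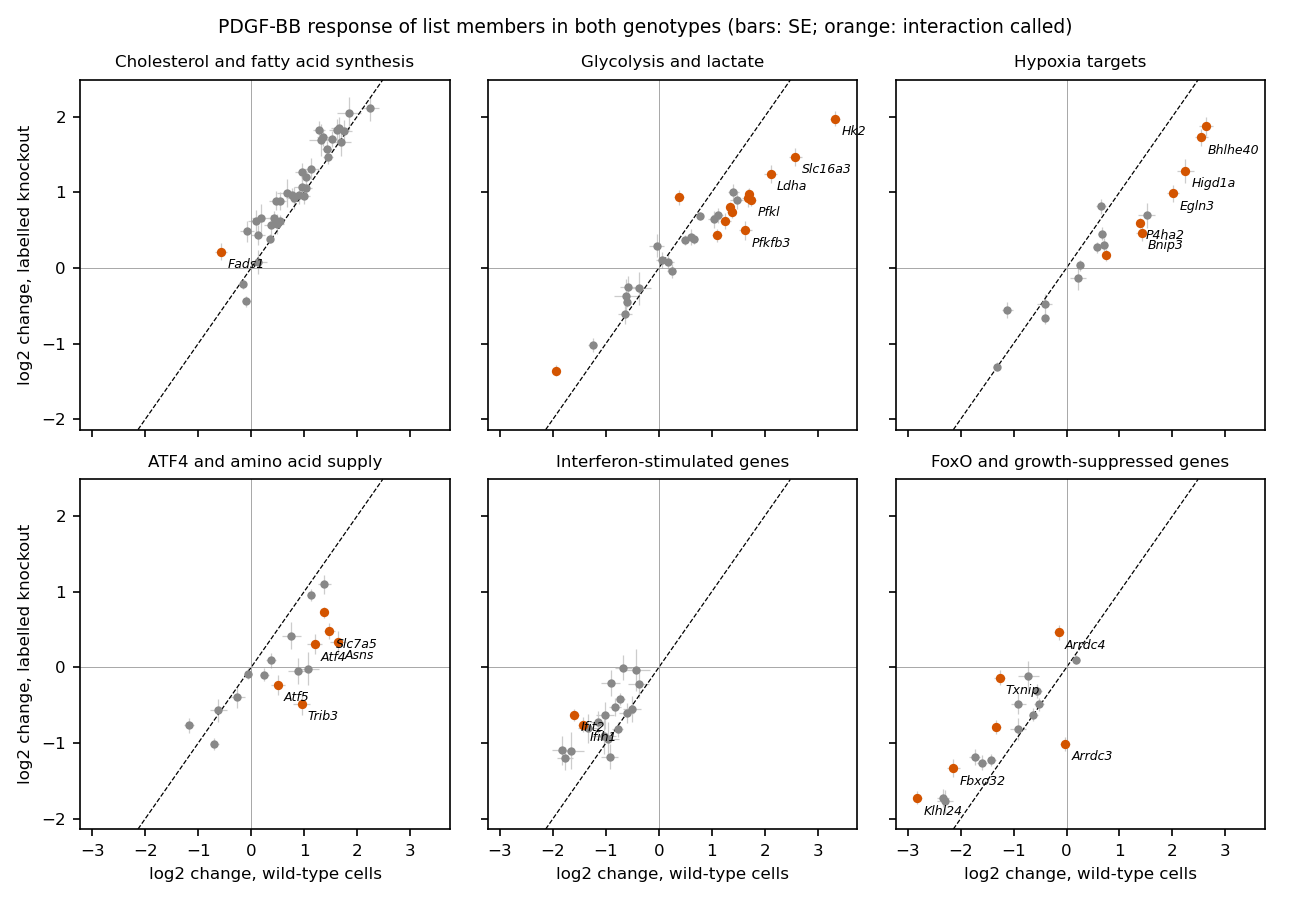
Log2 change with PDGF-BB in labelled knockout cells (vertical) against wild-type cells (horizontal) for the members of 6 lists, with SE bars, a dashed line of equal response and members with a called interaction in orange. Glycolysis, hypoxia and ATF4 genes that rose lie mostly below the line on the right, Hk2 at 1.97 against 3.33, while 31 of the 37 sterol and fatty acid genes lie above it, 1 of them with a called interaction.

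Interferon-stimulated genes, the sensors and effectors of antiviral defence, were lower. Of 20 tested, 0 were higher and 16 lower, with a median of -0.68, against 0, 18 and -0.95 in wild-type cells. Ifit1, which binds foreign RNA, stood at 16.4, 8.96 and 6.896 CPM in the untreated libraries and 4.102, 4.62 and 3.81 CPM in the treated ones. Ifit3 stood at 24.5, 16.4 and 16.1 CPM in the untreated libraries and 6.54, 9.34 and 8.93 CPM in the treated ones. Usp18, a brake on the interferon receptor, fell by 1.18 and Irf9, a subunit of the activating factor, by 0.82 on the log2 scale. Isg15 (-0.031) and Bst2 (-0.22) did not pass the test. Negative responses were larger in wild-type cells for Ifit2 (-1.60 against -0.63, interaction 0.97). Summed macrophage markers in the same libraries are given above, and 1 of 11 was called lower and 1 higher (3 lower without treated wild-type replicate 1 or 3, and 0 without untreated labelled knockout replicate 1). Their part in the falls was not tested.

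Both Ifit windows are shown because they hold 2 copies each of the interferon element. It was searched on both strands as TTTC, any 2 bases and TTTC again, and was found in 8 of the 15 interferon-stimulated genes with a window (53.3%), against 3.62% of tested genes. Among all tested genes the share was 4.37% in those called lower and 2.77% in those called higher. The matches, in capitals, begin 104 and 85 bases before the start of Ifit1 and 156 and 122 before that of Ifit3.
Ifit1 chr19:34640639-34640888 (+): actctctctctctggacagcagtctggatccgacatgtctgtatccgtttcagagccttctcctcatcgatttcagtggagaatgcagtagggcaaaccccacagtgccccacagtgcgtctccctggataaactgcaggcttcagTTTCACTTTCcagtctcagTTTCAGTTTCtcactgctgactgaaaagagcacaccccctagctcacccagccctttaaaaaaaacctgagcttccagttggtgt
Ifit3 chr19:34583279-34583528 (+): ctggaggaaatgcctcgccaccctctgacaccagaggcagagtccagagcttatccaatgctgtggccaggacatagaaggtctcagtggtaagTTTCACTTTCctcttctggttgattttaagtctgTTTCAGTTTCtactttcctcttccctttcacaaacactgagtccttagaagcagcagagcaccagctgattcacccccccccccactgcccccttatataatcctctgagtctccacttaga

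A list of FoxO and other growth-suppressed genes was mostly lower too. AKT signalling shuts FoxO factors off, but not every member of the list is defined by FoxO. Of 18 tested, 1 was higher and 14 were lower, with a median of -0.80 against -1.09 in wild-type cells. Irs2, an adaptor of the insulin receptor, stood at 22.1, 16.9 and 20.2 CPM in the untreated libraries and 5.35, 5.35 and 4.998 CPM in the treated ones. Klf15 fell from 9.81 to 2.14 CPM, Sesn1, a sestrin that restrains mTORC1, from 28.8 to 11.4 CPM, Ccng2 from 61.1 to 25.6 CPM and Pik3ip1, an inhibitor of PI3K, from 79.8 to 34.7 CPM. Klhl24 fell less than in wild-type cells, -1.73 against -2.82 (interaction 1.10, SE 0.12, adjusted p = 0.000416). The FoxO element GTAAACA was found in 2 of 14 windows of this list, against 3.00% of tested genes.

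The arrestin-domain genes of that list differed between the genotype labels in unlike ways. Arrdc3 stood at 57.8, 45.7 and 46.4 CPM in the untreated libraries and 23.3, 23.6 and 25.7 CPM in the treated ones in labelled knockout cells, a fall of 1.01, and at 41.03 ± 2.905 and 40.3 ± 1.24 CPM in wild-type ones (interaction -0.99, SE 0.13, adjusted p = 0.00119). Txnip, which restrains glucose uptake, ran the other way. It stood at 288, 250.4 and 246 CPM in the untreated libraries and 234, 244 and 235 CPM in the treated ones in labelled knockout cells, a difference of -0.13 that did not pass the test, and went from 611 ± 21.1 to 256 ± 44.4 CPM in wild-type cells (interaction 1.13, SE 0.14, adjusted p = 0.000908). The untreated labelled knockout level of Txnip was thus near the treated wild-type level. Arrdc4 was higher in labelled knockout cells (0.46), with an interaction of 0.61 called in 12 of 23 fits.

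The matrix changed gene by gene. Of 29 collagen and elastic fibre genes 11 were higher and 6 lower, with a median of 0.080. Over all tested genes 17.6% were higher and 24.8% lower. Beside Col6a3, Col15a1 rose from 59.2 to 259 CPM and Col1a1 from 4505 to 6337 CPM, while Col3a1 fell by 0.39 and Col14a1 by 0.61 on the log2 scale. Fbn2, a fibrillin, stood at 3.08, 2.14 and 2.06 CPM in the untreated libraries and 12.7, 11.6 and 11.7 CPM in the treated ones, and its rise of 1.94 was larger than the 0.79 of wild-type cells (interaction 1.15, SE 0.23, adjusted p = 0.014). Fbln5, which guides elastic fibre assembly, fell from 5269 to 3608 CPM, and Eln did not pass the test (-0.29). Among proteoglycans Vcan, versican, rose from 24.2 to 60.6 CPM, and the small leucine-rich proteoglycans Ogn, Aspn and Fmod fell by 1.18, 1.13 and 0.58. Cemip, which degrades hyaluronan, fell from 2494 to 1539 CPM, less than in wild-type cells (-1.93, interaction 1.24).

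Of 16 matrix proteases and inhibitors, 2 were higher and 6 lower, where 17.6% and 24.8% of all tested genes were. Falls were mostly in the ADAMTS family: Adamts5, an aggrecan-cleaving protease, stood at 113, 187 and 180.3 CPM in the untreated libraries and 53.05, 53.4 and 51.7 CPM in the treated ones. Adamts15 fell from 12.9 to 3.23 CPM and Adamts6 from 36.6 to 14.9 CPM, and Mmp11 fell by 1.11. The rises were in Timp1, an inhibitor of metalloproteases (from 161 to 551 CPM), and Mmp14, a membrane-bound one (0.41).

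BMP signalling genes were mostly lower. Of 30 tested, 7 were higher and 17 lower, with a median of -0.38 against -0.30 in wild-type cells. Falls ran through the ligands Bmp4 (-0.63) and Gdf10 (-1.32), the antagonists Nog, Chrdl1 (-0.78) and Grem1 (-0.61) and the targets Id3 (-0.80), Smad6 (-0.89) and Smad9 (-1.54). Id3 stood at 358, 309 and 325 CPM in the untreated libraries and 181, 199 and 186 CPM in the treated ones. Bmper rose from 24.6 to 48.7 CPM. Inhba, an activin subunit, rose by 0.52 in labelled knockout cells and was not called in wild-type ones (-0.086, interaction 0.61, SE 0.11, adjusted p = 0.00713). Fst, the activin antagonist follistatin, rose by 0.32 and fell in wild-type cells (-0.48, interaction 0.80, SE 0.091, adjusted p = 0.000431).

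TGF-beta, Wnt and Notch genes had more members lower than higher, as had all tested genes (24.8% lower and 17.6% higher). In the Wnt list the balance of lower to higher was near that of all genes, though larger shares were called in both directions. Of 18 TGF-beta genes 2 were higher and 10 lower, with 5 lower without replicate 1 of the untreated or replicate 3 of the treated labelled knockout libraries. Tgfb2 fell from 571 to 258 CPM and Tgfb3 from 112 to 66.9 CPM, while Tgfb1 rose by 0.52. Of 18 Wnt genes 5 were higher and 8 lower. Wnt2 stood at 0.131, 0.936 and 0.612 CPM in the untreated libraries and 5.16, 5.25 and 4.498 CPM in the treated ones, and Wnt5a fell from 174 to 60.99 CPM and the Wnt agonist Rspo3 from 9.27 to 1.76 CPM. Secreted antagonists moved both ways, with Sfrp2 falling from 3883 to 2212 CPM and Frzb by 0.57, and Dkk1 rising by 0.72. Of 11 Notch genes 1 was higher (Hes1, called in 23 of 24 fits) and 5 were lower, including the receptor Notch3 (from 43.7 to 18.7 CPM) and the ligand Jag1 (from 429 to 258 CPM). In that list 2 were higher without untreated or treated wild-type replicate 1, and 0 higher and 4 lower without untreated labelled knockout replicate 1.

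The Notch target genes Hey1 and Hey2 had called interactions of opposite sign. Hey1 stood at 13.7, 8.36 and 8.45 CPM in the untreated libraries and 2.72, 3.75 and 3.06 CPM in the treated ones in labelled knockout cells and at 0.768 ± 0.217 and 0.523 ± 0.0894 CPM in wild-type cells, a low level throughout. Its interaction of -1.19 was called in 14 of 22 fits. So low a wild-type level leaves little room for a fall on the log2(CPM + 1) scale. This value therefore cannot compare the falls. Hey2 stood at 42.1, 28.8 and 33.5 CPM in the untreated libraries and 10.7, 11.9 and 9.995 CPM in the treated ones, a smaller fall than in wild-type cells, which went from 39.8 ± 0.765 to 3.91 ± 0.675 CPM (interaction 1.48, SE 0.19, adjusted p = 0.000908).

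Contractile genes as a list were called about as often as all tested genes at 6 h. Of 23 tested, 4 were higher and 6 lower, with a median of -0.11. Over all genes 17.6% were higher and 24.8% lower, with a median of -0.067. Acta2, smooth muscle actin, stood at 1799, 2717 and 2863 CPM in the untreated libraries and 2539, 2573 and 2621 CPM in the treated ones, with overlap. Of the other markers Smtn rose by 0.33 and Itga8 fell by 0.65, and Klf4, a factor that represses contractile genes, rose from 97.8 to 162 CPM. Myh11 fell by 0.54 (called in 20 of 24 fits) and Cnn1 rose by 0.57 (called in 21 of 24 fits). The counts depended on single libraries: 7 higher and 9 lower without treated wild-type replicate 1, and 3, 2 and 3 lower without untreated replicates 2 and 3 and treated replicate 1 of labelled knockout. In cGMP and cAMP signalling, which relaxes smooth muscle, 2 of 16 genes were higher and 9 lower. Both subunits of soluble guanylate cyclase fell, Gucy1a1 from 3.87 to 0.891 CPM and Gucy1b1 from 4.96 to 1.85 CPM. The phosphodiesterase Pde5a fell from 467 to 207 CPM and the natriuretic peptide receptor Npr3 from 689.6 to 205 CPM. Pde5a and Npr3 act against cGMP signalling, so the counts give no direction for the pathway.

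Integrin subunits moved in both directions. Itga5, of the fibronectin receptor, stood at 177, 207 and 217 CPM in the untreated libraries and 705, 634 and 695 CPM in the treated ones. The collagen-binding subunits Itga1 and Itga2 fell from 232 to 70.4 CPM and from 89.9 to 33.5 CPM, and Itga4 fell by 1.08. In all, 6 of 15 integrin subunits were higher and 6 lower, where 17.6% and 24.8% of all tested genes were. Of 33 guidance genes 10 were higher and 13 lower (11 and 20 without treated wild-type replicate 1). Beside Ngef, the Eph receptor gene Epha2 rose from 43.7 to 101 CPM, Sema5a rose from 25.6 to 80.1 CPM and Nrp1, a semaphorin and VEGF receptor, from 126 to 241 CPM.

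Cell cycle genes were for the most part not called. Of 53 tested, 7 were higher and 7 lower, shares below those of all genes, and they moved with single libraries: 11 were lower without replicate 1 of the untreated labelled knockout libraries, 4 without untreated replicate 2 or 3 or treated replicate 2, and 4 were higher without treated replicate 3. Ccnd1, cyclin D1, rose from 206 to 342 CPM, and the inhibitors Cdkn1b and Cdkn2b fell by 0.92 and 0.49 on the log2 scale. Among 21 genes of G2 and mitosis 0 were higher and 1 lower (Cdk1, called in 12 of 24 fits), with a median of -0.029. In wild-type cells 0 were higher and 16 lower, with a median of -0.84. The interaction of this set had a median of 0.72 but was called for 0 of its genes in the positive and 0 in the negative direction, so a difference between the labels was not shown for any 1 of them. Mki67, a proliferation marker, stood at 11.4, 21.2 and 22.97 CPM in the untreated libraries and 18.9, 17.6 and 17.1 CPM in the treated ones.

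Across all genes the responses of the genotypes were tested against each other directly. The interaction was called for 557 genes (3.92%), 319 with a higher value in labelled knockout cells (2.25%) and 238 with a lower one (1.68%), and 391 of the 557 were also called in the labelled knockout response. This count rested on single libraries. It was 1554 without replicate 1 and 907 without replicate 3 of the treated wild-type group. It was 276, 357 and 320 without untreated wild-type replicates 1, 2 and 3, 337 and 328 without untreated labelled knockout replicates 2 and 3, and 284, 274 and 314 without the treated labelled knockout replicates. Of the 747 genes called in labelled knockout cells and not in wild-type ones, 36 had a called interaction, so for most of them a difference was not shown. Summed endothelial, macrophage, Schwann cell and fibroblast markers and Krt18 differed between genotypes as given above. Their part in these differences was not tested.

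The strongest negative interaction among genes called in labelled knockout cells was in Nptx1, neuronal pentraxin 1. It stood at 6.61, 9.23 and 7.12 CPM in the untreated libraries and 29.1, 30.5 and 33.9 CPM in the treated ones, a rise in every library, but went from 4.26 ± 0.209 to 129 ± 18.8 CPM in wild-type cells (interaction -2.72, SE 0.18, adjusted p = 1.35e-05). Rgs2, a brake on G protein signalling, stood at 7.26, 7.29 and 7.34 CPM in the untreated libraries and 19.3, 18.3 and 20.5 CPM in the treated ones against 16.7 ± 0.545 and 159 ± 48.2 CPM in wild-type cells (interaction -1.84, SE 0.21, adjusted p = 0.000431). Sost fell more in labelled knockout cells, -2.44 against -1.004, but its interaction was called in 10 of 23 fits. In wild-type cells it stood at 1.96 CPM untreated and 0.48 CPM treated, a level where the log2(CPM + 1) scale understates the change. By mean CPM it fell 6.97-fold in labelled knockout cells and 4.08-fold in wild-type cells. With edgeR its interaction was not called (adjusted p = 0.569). Epgn, epigen, had an interaction of -1.49 called in 20 of 22 fits, with a mean of 0.735 CPM in treated labelled knockout libraries, where its rise was called in 12 of 23 fits. Cd44 rose slightly less than in wild-type cells (interaction -0.44, called in 13 of 23 fits).

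Of the 8 most positive interactions 6 were falls that were smaller in labelled knockout cells. Nr3c2, the mineralocorticoid receptor, fell by 1.02 against a change of -2.79 in wild-type cells (interaction 1.77, SE 0.24, adjusted p = 0.00119), and Edar, the ectodysplasin receptor, by 1.80 against -3.36 (interaction 1.56, SE 0.16, adjusted p = 0.000293). Fgd3, an exchange factor for CDC42, changed by -0.43 against -1.97, and Acss3, a mitochondrial acyl-CoA synthetase, by -0.80 against -2.19.

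In 31 genes both responses were called with opposite signs, 14 higher and 17 lower in labelled knockout cells, and 30 of the 31 had a called interaction. Dkk2, a Wnt antagonist, stood at 6.35, 5.28 and 5.95 CPM in the untreated libraries and 13.96, 11.8 and 15.9 CPM in the treated ones and went from 6.44 ± 0.286 to 3.85 ± 0.181 CPM in wild-type cells (interaction 1.73, SE 0.16, adjusted p = 0.000159). All treated labelled knockout libraries lay above, and all treated wild-type libraries below, every untreated library of both kinds. Pdzd2 (0.78 against -0.63), the catenin gene Ctnnd2 (0.47 against -0.76, labelled knockout call in 20 of 24 fits), the sorting receptor gene Sorcs2 (0.41 against -0.54, likewise 20 of 24 fits) and the G protein subunit gene Gnai1 (0.41 against -0.39) also rose in labelled knockout cells and fell in wild-type ones. The cytokine gene Lif did so too (0.38 against -0.59), with a labelled knockout call in 19 of 23 fits. The reverse held for Ppp1r3c, which targets protein phosphatase to glycogen (-0.79 against 0.47), the glycine transporter gene Slc6a9 (-0.73 against 0.34), the mTOR inhibitor gene Deptor (-0.68 against 0.50), Lrrc4 (-0.61 against 0.77) and the R-spondin receptor gene Lgr4 (-0.40 against 0.21).

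**Figure D4:**
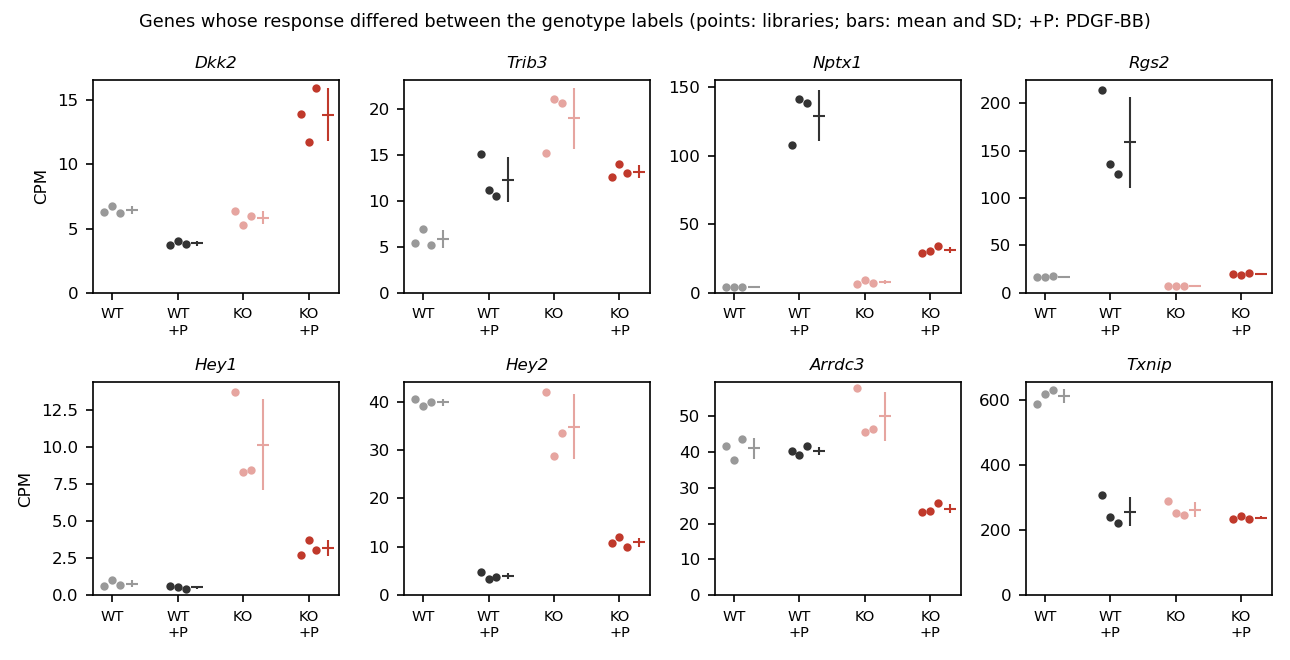
CPM of 8 genes in each library of the 4 groups (WT, wild-type; KO, labelled knockout; +P, PDGF-BB), with the mean and SD of 3 libraries beside the points and axes starting at 0. Dkk2 rises to a mean of 13.9 CPM in treated labelled knockout cells and falls to 3.85 CPM in treated wild-type cells.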

How the data were processed

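Poly(A) RNA was sequenced from stranded libraries of primary mouse vascular smooth muscle cells in 4 groups of 3 libraries. Per the submitters' processing notes the authors used HISAT2 and HTSeq on mm10, and the file header names GRCm38.p6. Versions and the strand setting of the counting are not given in the sources used here. The values the authors deposited are CPM: each library sums to 1000000, and all values are whole reads within 0.001 read once multiplied by the library total, so reads were recovered for edgeR and DESeq2. All libraries held 14953807 to 21698488 reads, and 1 read was 0.0669 CPM at the lowest depth. Of 55487 genes, 25008 were at 0 in all libraries.

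The test was limma-trend (limma 3.58.1, R 4.3.3) on log2(CPM + 1), pseudocount 1, with 4 group means in 1 fit of 12 libraries, 2-sided, with Benjamini-Hochberg adjustment over 14202 genes. The same fit was run on simulated counts with few genes changed, only in the treated labelled knockout group. That setting is unlike these data, so it does not vouch for the counts given here. The interaction subtracts the wild-type response from that of labelled knockout cells, and these share no library. Alternatives used edgeR 4.0.16 and DESeq2 1.42.0. A fit here means the reported one or 1 of up to 23 alternatives. Named genes are Tigar, the 16 largest rises and falls among called genes without overlap and with a mean CPM of at least 1, the 8 most positive and negative interactions, up to 6 genes of opposite response in each direction, and members of 48 gene lists, of which 776 symbols were tested and 92 fell below the filter. A few of the genes this rule picks are left out here. The members and lists were chosen with earlier results of these data known. Overlap of exons was read from GENCODE M21 and promoter windows from RefSeq. Without strand in the counting, reads of overlapping genes cannot be told apart.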

Additional observations from a re-analysis of the deposited data

Results flagged for a closer look

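These genes are listed because their response to PDGF-BB differed between the genotype labels in the test of the interaction (limma-trend, adjusted p under 0.05). Each value is the log2 change in labelled knockout cells minus that in wild-type cells. More positive in labelled knockout cells were Nr3c2 (1.77), Dkk2 (1.73), Nrg1 (1.69), Edar (1.56), Fgd3 (1.54), Hey2 (1.48), Pdzd2 (1.41), Acss3 (1.39), Ctnnd2 (1.23), Sorcs2 (0.95), Gnai1 (0.80) and Lif (0.97). More negative were Cd44 (-0.44), Sost (-1.44), Nptx1 (-2.72), Mthfd2 (-1.96), Rgs2 (-1.84), Epgn (-1.49), Trib3 (-1.43), Errfi1 (-1.42), Lrrc4 (-1.39), Ppp1r3c (-1.26), Slc6a9 (-1.08), Deptor (-1.18) and Lgr4 (-0.61). Among the 25 the call was made in fewer than 15 fits for Cd44 (13 of 23 fits) and Sost (10 of 23 fits).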

How the results depend on the processing

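Each result was recomputed with pseudocounts of 0.5 and 2, no filter, a mean CPM of at least 5, TMM and quantile scaling, only the groups compared, library weights, a replicate block, edgeR and DESeq2 on recovered reads, and without each library in turn. The labelled knockout count of 6025 ran from 4815 to 8079 over left-out libraries, with 2050 to 3455 higher and 2765 to 4624 lower. Genes changed at least 2-fold numbered 527 to 661 over left-out libraries, 1146 with edgeR and 1164 with DESeq2, which do not shrink low genes by a pseudocount. The interaction count of 557 was 371 with no filter, 4720 with library weights (whose estimation stopped before its tolerance was met) and 910 with DESeq2, and 274 to 1554 over left-out libraries. The wild-type count of 8431 ran from 7342 to 9044 over left-out libraries and from 6754 (mean CPM of at least 5) to 11395 (library weights) over the other settings. Deviations of same-numbered libraries from their group means had r of 0.00977, -0.0575 and 0.0401 in labelled knockout cells. In wild-type cells r was -0.231, -0.208 and 0.15. These values cannot tell whether same-numbered libraries share a mouse, dish or batch. With the replicate block the counts were 2235 higher, 3141 lower and 588 at least 2-fold in labelled knockout cells and 228 for the interaction. The causes of these shifts were not tested. Library weights moved the counts of contractile genes to 7 higher and 11 lower, and of cell cycle genes to 11 and 13. Some values of the 53 genes named by size or by a difference between genotypes lost their call under some setting. These were 28 for the labelled knockout response (5 genes) and 29 for the interaction (6 genes). Another 20 interaction values (10 genes) gained a call, and no value went to a call in the opposite direction. Interaction values that were not called could change sign, as for Serpinb2 (0.28, with -2.06 to 0.45 over 22 fits). Of the list members, 89 of 491 called in the labelled knockout response and 56 of 108 called in the interaction lost the call in some fit. No value can be read below 0.0669 CPM, 1 read at the lowest depth, and 6 libraries of unknown independence limit every p.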

Other observations

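Inflammatory and lipid mediator genes moved singly. For the counts below, the shares over all tested genes were 17.6% higher and 24.8% lower. In the interleukin and chemokine list 9 of 22 genes were higher and 5 lower (median 0.064), with 3 lower without untreated replicate 1 or treated replicate 2 of labelled knockout. Beside Il1rl1, the interleukin 1 receptor antagonist gene Il1rn rose from 2.08 to 7.41 CPM, Il11 from 0.978 to 2.93 CPM and the chemokine Ccl7 from 1.77 to 5.34 CPM, while the interleukin 11 receptor gene Il11ra1 fell by 0.66. Ptgs2, the inducible cyclooxygenase, rose from 109 to 266 CPM and Hpgd, which breaks prostaglandins down, fell from 4.09 to 1.39 CPM. In the lipase list 4 of 11 genes were higher and 6 lower (median -0.19), with 3 lower without untreated or treated replicate 1 of labelled knockout, and with Lpl falling from 11.5 to 4.37 CPM as Lipg rose. Retinoic acid genes parted, with Aldh1a3 and the binding protein gene Crabp2 (from 0.261 to 4.501 CPM) rising and the degrading enzyme gene Cyp26b1 falling from 646 to 209.9 CPM, less than in wild-type cells (interaction 1.13).

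Clock genes moved in both directions. Arntl rose by 1.01 and Cry1 by 0.69, while the output genes Dbp, Per3 and Nr1d2 fell by 1.42, 1.17 and 0.71 on the log2 scale. Klf11 fell from 20.3 to 5.81 CPM and Klf10 rose from 12.8 to 27.3 CPM. Rgs5, a pericyte and smooth muscle gene, fell from 1767 to 967 CPM. In the calcification list 5 of 16 genes were higher and 6 lower (median -0.077), with Enpp1 and Ank, which supply pyrophosphate, rising by 1.16 and 0.91. Among NRF2 targets 4 of 18 genes were higher and 2 lower (median 0.12), among p53 targets 5 of 20 genes were higher and 6 lower (median 0.078), and among autophagy and lysosome genes 1 of 22 genes were higher and 7 lower (median -0.15). Without treated wild-type replicate 1 these became 9 and 2, 9 and 7, and 2 and 14. Over all 14202 tested genes 17.6% were higher and 24.8% lower, or 3455 and 4624 genes without that library. Only 3 p53 targets were higher without replicate 1 of either labelled knockout group or treated replicate 2, and no autophagy gene was higher without untreated replicate 2 or 3 or treated replicate 1 or 2.

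By CPM rather than by fold, chosen after their values were seen, large gains were in Col1a1 (from 4505 to 6337 CPM), Ahnak (from 2797 to 4369 CPM, called in 18 of 24 fits), the caveolin gene Cav1 (from 1561 to 2812 CPM) and Actb (from 2366 to 3533 CPM). The largest loss was in the thrombospondin gene Thbs1 (from 23976 to 17768 CPM, called in 17 of 24 fits), followed among called genes by Sfrp2 and Fbln5.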
